A study of Homo sapiens with 4 samples.

Results

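RNAs with LINC symbols, short for long intergenic noncoding, and 10 well studied long noncoding RNAs (MALAT1, NEAT1, PVT1, CCAT1, CCAT2, TUG1, NORAD, CYTOR, UCA1 and HOTAIR) were followed in HCT116, an established cell line from a human colon carcinoma. Total RNA was sequenced from 2 libraries of control cells and 2 libraries of cells labelled ARID1A knockdown (shARID1A); ARID1A binds DNA as part of SWI/SNF, a complex that remodels chromatin. The labels give both groups the same parental line and medium and name no other treatment. They state neither what the control cells carried, nor whether the knockdown was a pool or a clone, nor whether replicates were separate cultures, so p-values measure only how far these samples spread, and that spread may be technical.

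Every feature whose symbol is LINC followed by digits was taken if its mean over the 4 libraries reached 0.5 FPKM (fragment counts scaled for transcript length and library total, so that levels of different RNAs can be set side by side). Of 2104 LINC symbols, on 2118 rows, 1309 rows were at 0 in all 4 libraries and 150 reached the limit. Not all of the 150 are intergenic, as 22 overlap a protein-coding feature. Some are typed as transcribed pseudogenes, among them LINC02210, LINC00888, LINC00869 and LINC01145. CCAT1 was not matched in the tables and is not analysed here, and CCAT2 was listed at 0 in all 4 libraries. With the other 8 named RNAs, 158 of 60766 features in the tables were members with a test. The members were thus chosen by their level over both groups together and not by the difference between them, so levels are given as a description and differences are tested.

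Long noncoding RNAs are transcripts that carry no long conserved reading frame. Some stay at the site of transcription or build nuclear bodies, as NEAT1 does for paraspeckles, and others work in the cytoplasm, where NORAD binds Pumilio proteins. In colon carcinoma UCA1, CCAT1, PVT1 and several LINC RNAs are known for high levels, and HOTAIR, transcribed from the HOXC cluster, is known for its binding to the Polycomb complex PRC2 and to the LSD1-CoREST complex.

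ARID1A itself was 11.1 and 11.4 FPKM in the controls and 7.05 and 6.13 FPKM in the knockdown libraries. The groups did not overlap, and the difference was -0.69 (SE 0.078) on the log2(FPKM + 1) scale with an adjusted p of 0.00532 (limma, Benjamini-Hochberg over the 15061 features with a mean of at least 0.5 FPKM). The exact permutation test over the 4 libraries gave a two-sided p of 0.333, the smallest this design allows. Without control 2 the adjusted p was 0.0510. The depth recovered from the steps between low values was near 69000000 fragments for control 1, 70750000 for control 2, 75750000 for knockdown 1 and 74500000 for knockdown 2, so that 0.5 FPKM over 1 kb rested on 34.5 to 37.9 fragments. The mitochondrial share of summed FPKM was 4.35% and 4.29% in control against 6.04% and 5.65% in knockdown libraries; with them left out, 13 members were called higher and 28 lower. Of 9 markers of colon epithelium 6 reached 0.5 FPKM, with CEACAM5, LGALS4 and VIL1 below it, and their summed level was 3025 and 2920 FPKM against 4003 and 4160 FPKM, control before knockdown. Of 8 leukocyte markers 2 reached it (CD68 and LYZ; summed 7.77 and 6.26 against 3.31 and 3.93 FPKM) while CD3E, MS4A1 and TYROBP were at 0 throughout; of 6 fibroblast markers 1 reached it (COL1A1; summed 5.01 and 3.77 against 6.15 and 6.43 FPKM), and of 4 endothelial markers 0 did. The part of these shifts in the results below was not tested, and in bulk RNA fewer cells with a transcript and less RNA per cell cannot be told apart.

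Of the 150 LINC members, 10 were called higher and 25 lower in the knockdown, and 115 were not called. That is 23.3% of them, beside 33.3% of all 15061 tested features, of which 16.3% were called higher and 17.0% lower. Of the 12573 protein-coding features tested 36.5% were called, and of 1083 other long noncoding features 18.4%. The median difference of the LINC members was -0.08 log2, beside -0.01 for all tested features. In 33 LINC members both knockdown libraries lay above both controls and in 60 both lay below; over all tested features the groups were apart in 70.5%, 34.6% upward and 35.9% downward.

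**Figure D1:**
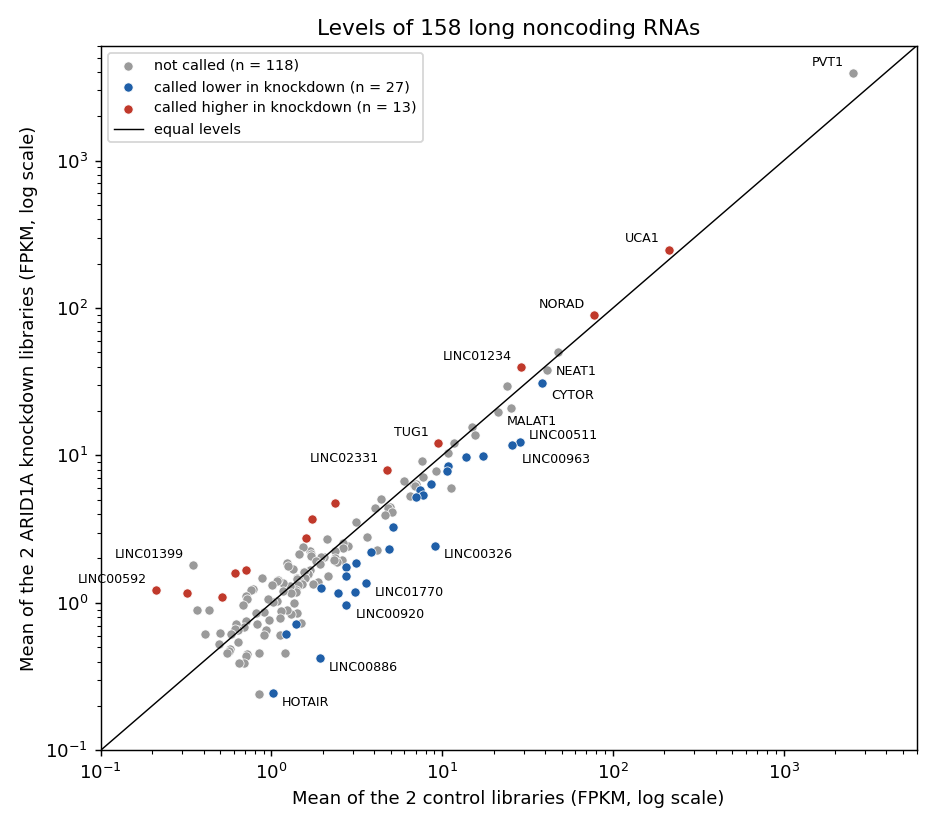
Mean FPKM of the 2 control libraries (x axis, log scale) against the 2 knockdown libraries (y axis, log scale) for 158 long noncoding RNAs; colour gives the limma call at an adjusted p of 0.05 and the line marks equal levels. The 27 RNAs called lower lie below the line and the 13 called higher above it, over control means from 0.210 FPKM (LINC00592) to 213 FPKM (UCA1).

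Most LINC members were rare transcripts. Their median level was 1.59 FPKM; 38 were below 1 FPKM, 29 were at 5 FPKM or more and 12 at 10 FPKM or more. The share called was larger for more abundant RNAs, up to 5 to 10 FPKM for LINC members and in every range for all features. From 0.5 to 1 FPKM it was 4 of 38 LINC members (10.5%, beside 8.72% of all features in that range), 3 higher and 1 lower (3.64% and 5.08% of all features). From 1 to 2 FPKM it was 7 of 53 (13.2%, beside 17.1%), 2 higher and 5 lower (7.75% and 9.31%). From 2 to 5 FPKM 11 of 30 were called (36.7%, beside 26.4%), 3 higher and 8 lower (9.74% and 16.7%). From 5 to 10 FPKM 8 of 17 were called (47.1%, beside 31.9%), 1 higher and 7 lower (12% and 19.9%). At 10 FPKM or more it was 5 of 12 (41.7%, beside 43.8%), 1 higher and 4 lower (23.8% and 20%). Replicates of the rare members were further apart. The median coefficient of variation between the 2 replicates was 19.1% in the controls and 13.1% in the knockdown below 1 FPKM, against 5.04% and 3.52% at 5 FPKM or more.

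**Figure D2:**
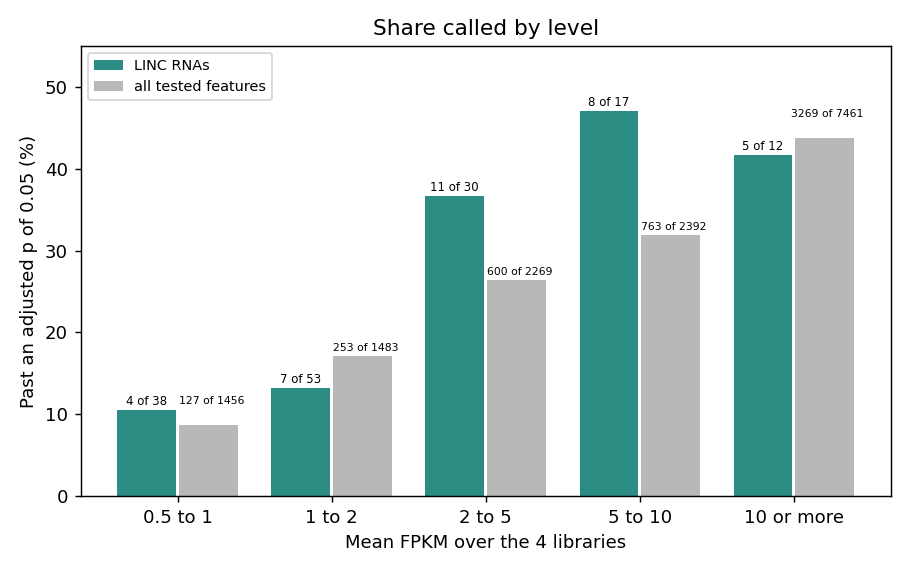
Percent of features called at an adjusted p of 0.05 (y axis, from 0) by mean FPKM over the 4 libraries (x axis, 5 ranges), for LINC members and for all tested features. Both shares are lowest from 0.5 to 1 FPKM, at 10.5% and 8.72%, and LINC members stand at 47.1% from 5 to 10 FPKM, where all features stand at 31.9%.

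Just above the limit stood LINC01694 (0.475, 0.618, 0.399 and 0.515 FPKM in control 1, control 2, knockdown 1 and knockdown 2), LINC00652 and LINC01843. Just below it were LINC01063 (0.230, 1.32, 0 and 0.449 FPKM), LINC00337 and LINC02352, which were not members. Of the 150, 132 reached 0.5 FPKM in both group means. The 11 that reached it in the control mean alone held 1 called lower and the 7 that reached it in the knockdown mean alone held 2 called higher; a low RNA that enters through 1 group has to differ, so these counts support no direction.

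UCA1, an RNA first described in bladder carcinoma (chr19:15828206-15836328), was among the most abundant RNAs of the set, with 215 and 212 FPKM in the controls and 253 and 245 FPKM in the knockdown. Both knockdown libraries were above both controls. The means of 213 ± 2.01 and 249 ± 5.64 FPKM (SD, n = 2) differed 1.17-fold, or by 0.22 log2 (SE 0.0343, limma adjusted p = 0.0114). Without control 1 or control 2 that call was lost (adjusted p 0.0789 and 0.0895).

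NORAD, a cytoplasmic RNA of 1 long exon that binds Pumilio proteins (chr20:36045618-36051018), was 78.1 and 77.1 FPKM in the controls and 91.7 and 87.5 FPKM in the knockdown. Again the groups were apart, with a 1.15-fold higher mean (0.20 log2, SE 0.0392, limma adjusted p = 0.0200). This small rise was no longer called without control 1, control 2 or knockdown 1 (adjusted p 0.0993, 0.114 and 0.0647), nor with quantile normalization (0.0564). The Pumilio motif TGTANATA, searched on the transcript strand, occurred 15 times in the 5339 bases of the GENCODE 29 transcript, or 2.81 times per kb. Of the 147 members with a GENCODE transcript 124 held none in the longest one; NEAT1 held 6 in 22743 bases and HOTAIR 3 in 2421. These 4 stretches show the repeated site that NORAD is known for, with the motif in capitals and positions counted from the 5′ end of the transcript:
NORAD bases 761 to 768: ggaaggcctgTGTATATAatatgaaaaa
NORAD bases 1140 to 1147: ctcactactgTGTATATAgttgacaatg
NORAD bases 1241 to 1248: aatcacatttTGTAAATAcctttttgtt
NORAD bases 2972 to 2979: aaccctactgTGTATATAgcggacaaac

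Genes for proteins that NORAD is reported to bind were counted as a list. Like every gene list here, it was chosen with earlier results of these data known, so its counts are a description. The Pumilio gene PUM2 was 33.5 and 34.1 FPKM in the controls and 36.7 and 34.5 FPKM in the knockdown, apart by little (adjusted p 0.288). Of 8 partners tested, 1 was higher and 2 lower (37.5% called, beside 33.3% of all features and 43.8% of those at 10 FPKM or more). Their median level was 84.2 FPKM and their median difference 0.04 log2. TOP1, the DNA topoisomerase, rose from 81.7 to 138 FPKM (0.75 log2, limma adjusted p 0.00122), and RBMX, an RNA-binding protein, fell from 121 to 93.0 FPKM (-0.38 log2, limma adjusted p 0.00287). CDC5L, a splicing factor, went from 12.6 to 10.6 FPKM (adjusted p 0.0415), a call lost without each library in turn (adjusted p 0.0676 to 0.161).

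TUG1, a broadly transcribed RNA first found in retina (chr22:30969245-30979395), was 9.36 and 9.55 FPKM in the controls and 12.3 and 12.1 FPKM in the knockdown. The groups were well apart beside the replicate spread, with means of 9.45 ± 0.133 and 12.2 ± 0.188 FPKM (SD, n = 2), a 1.29-fold rise of 0.34 log2 (SE 0.05, limma adjusted p = 0.0106). With 1 library fewer the adjusted p was 0.0547 to 0.0696, so that no leave-one-out fit called it. MORC2, whose locus lies 471 bp away, differed by 0.24 log2 with an adjusted p of 0.0503.

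CYTOR, a cytoplasmic RNA also listed as LINC00152 (chr2:87454781-87636740), was 37.2 and 40.0 FPKM in the controls and 31.3 and 30.7 FPKM in the knockdown. Each control was above each knockdown library, and the mean was 1.24-fold lower (-0.31 log2, SE 0.0497, limma adjusted p = 0.0131). Leaving out control 2, knockdown 1 or knockdown 2 gave an adjusted p of 0.0715, 0.0562 and 0.0670. Its locus overlaps 2 other expressed noncoding features, and the counting is not stated to use strand, so their reads cannot be told apart.

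HOTAIR (chr12:53962308-53974956) was low and uneven: 1.28 and 0.764 FPKM in the controls, 0.256 and 0.233 FPKM in the knockdown. Both knockdown libraries were below both controls. The mean fell 4.17-fold, from 1.02 ± 0.363 to 0.245 ± 0.0163 FPKM (SD, n = 2), which the scale with 1 FPKM added gives as -0.69 log2 (SE 0.163, limma adjusted p = 0.0344). HOTAIR was a member by name, but it entered the fit through its control mean alone, so its call supports no direction. The call was lost without control 1, knockdown 1 or knockdown 2 (adjusted p 0.104, 0.106 and 0.115), and the locus overlaps HOXC11 on the other strand. Of 9 genes of its partner complexes tested, 2 were higher and 0 lower (22.2% called, beside 33.3% of all features and 43.8% of those at 10 FPKM or more). Their median level was 14.8 FPKM and their median difference 0.04 log2. RCOR1, the CoREST scaffold, rose from 11.4 to 16.2 FPKM (0.47 log2, limma adjusted p 0.00379), and KDM1A, the LSD1 demethylase, from 60.1 to 66.1 FPKM (0.13 log2, limma adjusted p 0.0438), the latter called in no fit with 1 library fewer (adjusted p 0.0931 to 0.191).

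NEAT1 and MALAT1 lie next to each other on chromosome 11 and are retained in the nucleus, in paraspeckles and in speckles. NEAT1 (chr11:65422774-65445540) was 42.7 and 39.3 FPKM in the controls and 39.9 and 36.4 FPKM in the knockdown, so the groups overlapped (-0.10 log2, SE 0.0673, adjusted p 0.298). MALAT1 (chr11:65497688-65506516) was 24.97 and 17.3 FPKM in the controls against 19.7 and 19.5 FPKM. The 2 controls enclosed both knockdown libraries, and the difference of -0.08 log2 (SE 0.169, adjusted p 0.743) became 0.17 without control 1. The coding neighbour of NEAT1, FRMD8, 9249 bp away, rose from 22.6 to 39.3 FPKM (0.77 log2, limma adjusted p 0.00659; 0.0530 without control 2).

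Genes for proteins of the 2 nuclear bodies were counted as 2 lists. Both were chosen with earlier results of these data known, so their counts are a description. Of 20 paraspeckle proteins tested, 4 were higher, 8 lower and 8 not called (60% called), with a median of -0.06 log2. SFPQ, a core paraspeckle protein, fell from 86.3 to 71.0 FPKM (-0.28 log2, limma adjusted p 0.0126; 0.0707 and 0.0872 without control 1 or 2). HNRNPR fell from 97.2 to 80.4 FPKM (-0.27 log2, limma adjusted p 0.0204; 0.115, 0.0976 and 0.0509 without control 1, control 2 or knockdown 2). Of 16 SR splicing proteins, which gather in the speckles that hold MALAT1, 11 were higher, 0 lower and 5 not called (68.8% called), with a median of 0.22 log2. Both lists are abundant, at median levels of 88.1 and 75.2 FPKM, and of all features at 10 FPKM or more 43.8% were called and 23.8% were higher. The largest rises by log2 were in SRSF8 (22.3 to 30.1 FPKM, 0.42 log2, limma adjusted p 0.0103), SRRM1 (39.6 to 50.5 FPKM, adjusted p 0.0373) and SRSF4 (24.99 to 32.0 FPKM, adjusted p 0.00644). Each of these 3 was lost without at least 1 library: SRSF8 without knockdown 1 or 2 (adjusted p 0.0584 and 0.0563), SRRM1 without control 2, knockdown 1 or knockdown 2 (0.103, 0.147 and 0.101), and SRSF4 without control 1 or 2 (0.0563 and 0.0523).

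PVT1, a host RNA next to MYC in the 8q24 region that is often amplified in carcinoma, stood far above the other members with 2992 and 2072 FPKM in the controls and 2965 and 4902 FPKM in the knockdown. Knockdown 1 lay between the controls and knockdown 2 above all, and the difference was not called (0.61 log2, SE 0.295, adjusted p 0.176). Among all features it ranked 48, 77, 43 and 14 by level in control 1, control 2, knockdown 1 and knockdown 2. GENCODE 29 gives it 25 transcripts of 113 to 1699 bases, and the correction for length makes FPKM of the shortest ones large and uncertain. MYC, 51575 bp away, was 288 and 282 FPKM in the controls and 318 and 332 FPKM in the knockdown, higher by 0.19 log2 (limma adjusted p 0.0225; 0.108, 0.137 and 0.0682 without control 1, control 2 or knockdown 2, and 0.160 with quantile normalization). Of 6 genes of the 8q24 list tested, MYC was the 1 called higher and 3 were called lower (66.7% called, beside 33.3% of all features). The PCAT1 locus holds all of the CASC19 locus and overlaps that of CASC8, so reads of these RNAs may be mixed. PCAT1, a prostate carcinoma RNA, went from 2.47 to 1.10 FPKM (-0.71 log2, limma adjusted p 0.0339; 0.0929, 0.132 and 0.104 without control 1, knockdown 1 or knockdown 2). CASC19 went from 4.44 to 2.39 FPKM (-0.69 log2, limma adjusted p 0.0165; 0.0938, 0.0696 and 0.0624 without control 1, control 2 or knockdown 2). ASAP1, a GTPase-activating protein gene, went from 11.5 to 8.97 FPKM (limma adjusted p 0.0235; 0.0534 to 0.118 with 1 library fewer).

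**Figure D3:**
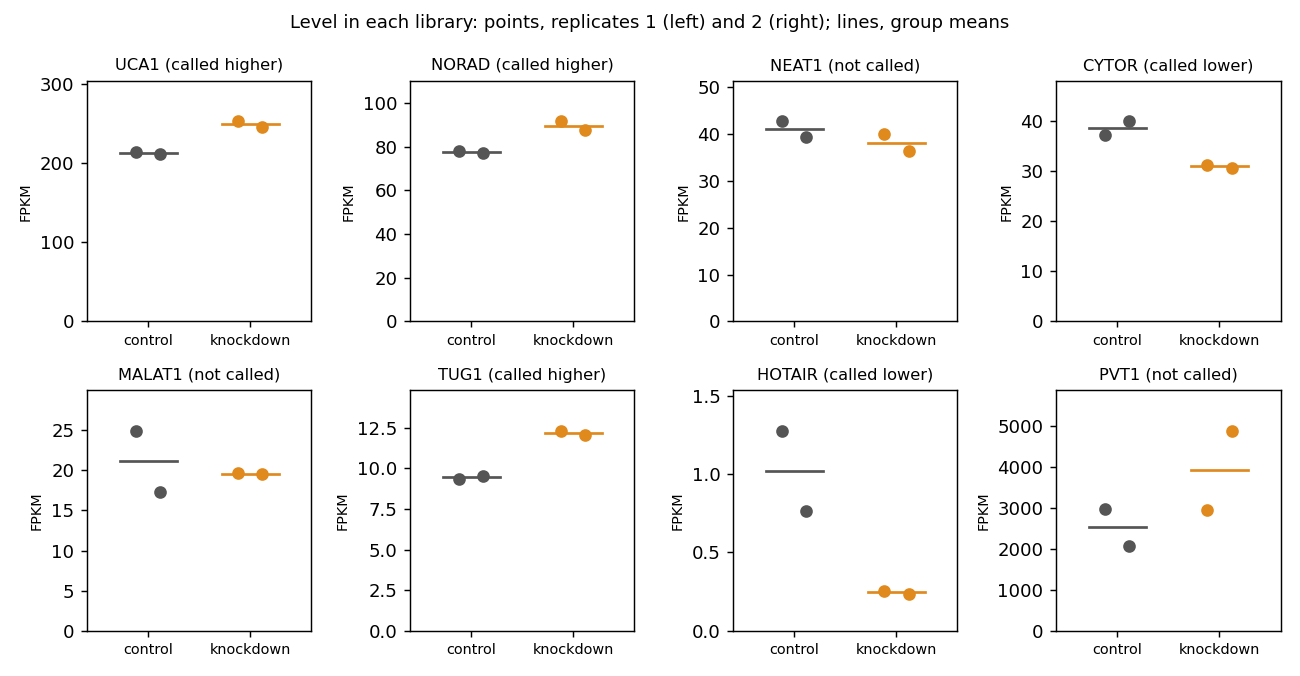
FPKM of 8 named long noncoding RNAs in each library (points) with group means (lines); every y axis is linear and starts at 0. UCA1, NORAD and TUG1 are higher and CYTOR and HOTAIR lower in both knockdown libraries, while the groups overlap for NEAT1, MALAT1 and PVT1.

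Falls among the LINC members reached -1.54 log2. LINC00326 (chr6:132954257-133107410) was 8.05 and 10.1 FPKM in the controls and 2.39 and 2.51 FPKM in the knockdown. The groups were wide apart, with means of 9.10 ± 1.48 and 2.45 ± 0.0861 FPKM (SD, n = 2), 3.72-fold lower (-1.54 log2, SE 0.117, limma adjusted p = 0.00207). It overlaps an expressed clone-named feature, AL591115.1, over 41889 bases. AL591115.1 was also called lower (-0.64 log2), and reads of the 2 may be mixed. LINC00511 (chr17:72290091-72640472), known for high levels in several carcinomas, was 28.5 and 28.5 FPKM against 12.5 and 12.1 FPKM. Replicates were close and the groups far apart, 2.32-fold lower (-1.15 log2, SE 0.0437, limma adjusted p = 4.98e-04). LINC00963 (chr9:129476946-129513687) was 26.4 and 25.2 FPKM against 11.5 and 11.9 FPKM. It was 2.20-fold lower with no overlap (-1.08 log2, SE 0.0497, limma adjusted p = 6.88e-04). LINC00460 (chr13:106374477-106384315), reported at high levels in colon carcinoma, was 5.24 and 4.57 FPKM against 2.23 and 2.39 FPKM. That is 2.13-fold lower, again with no overlap (-0.83 log2, SE 0.091, limma adjusted p = 0.00487).

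LINC00920 on chromosome 16 was 2.69 and 2.80 FPKM in the controls and 1.05 and 0.875 FPKM in the knockdown, 2.86-fold lower (-0.93 log2, limma adjusted p 0.00425). LINC00239 on chromosome 14 was 3.37 and 2.77 FPKM against 1.21 and 1.14 FPKM, 2.61-fold lower (-0.90 log2, limma adjusted p 0.00631). LINC00623 on chromosome 1 was 18.1 and 16.7 FPKM against 9.64 and 10.1 FPKM, 1.77-fold lower (-0.76 log2, limma adjusted p 0.00240). For each of these 3, both knockdown libraries were below both controls by more than the replicates differed. LINC00886 on chromosome 3 was 1.45 and 2.40 FPKM against 0.490 and 0.354 FPKM, 4.56-fold lower with uneven controls (-1.02 log2, limma adjusted p 0.0183; 0.0589, 0.0683 and 0.0879 without control 2, knockdown 1 or knockdown 2). It reached the 0.5 FPKM limit through the control mean alone, so its call supports no direction. LINC01770 on chromosome 1 was 3.80 and 3.32 FPKM against 1.72 and 1.004 FPKM (-0.96 log2, limma adjusted p 0.0166; 0.0971 and 0.0778 without control 1 or 2). LINC00973 on chromosome 3 was 2.71 and 2.19 FPKM against 1.34 and 1.004 FPKM (-0.67 log2, limma adjusted p 0.0219; 0.103, 0.0650 and 0.0872 without control 1, control 2 or knockdown 2). The groups of these last 3 did not overlap either. The other 15 LINC RNAs called lower ranged from -0.59 log2 (LINC02732) to -0.30 log2 (LINC00847).

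Rises were fewer, and most began from low levels. LINC00592 (chr12:52164115-52223813), which reached the 0.5 FPKM limit through the knockdown mean alone, was 0.334 and 0.0860 FPKM in the controls and 1.18 and 1.27 FPKM in the knockdown. The knockdown mean was 5.84-fold higher, but an RNA that enters through 1 group has to differ and its call supports no direction (0.89 log2, SE 0.146, limma adjusted p = 0.0135; 0.0535, 0.0566 and 0.0643 without control 2, knockdown 1 or knockdown 2). It overlaps KRT80, a keratin gene, which was at 5.60 against 5.64 FPKM (adjusted p 0.919). LINC02331 (chr14:53685139-53850882) was 5.13 and 4.43 FPKM against 8.04 and 8.01 FPKM. Its groups were apart, with a 1.68-fold higher mean (0.65 log2, SE 0.081, limma adjusted p = 0.00676). All 165744 bases of its locus lie within that of AL365295.1, a noncoding feature at 1.85 FPKM that was also called higher (0.43 log2). Reads of the 2 may be mixed. LINC01234 (chr12:113583886-113773726), the second most abundant LINC member, was 29.1 and 28.5 FPKM against 39.6 and 39.5 FPKM. Replicates differed by little and the mean was 1.37-fold higher (0.44 log2, SE 0.0375, limma adjusted p = 0.00265). LINC01730 (chr20:3808357-3812434) was 0.634 and 0.596 FPKM against 1.56 and 1.64 FPKM, 2.60-fold higher with no overlap (0.69 log2, SE 0.0989, limma adjusted p = 0.00966; 0.0536 and 0.0562 without control 1 or 2).

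The other 6 were called on smaller margins. LINC00173 was 1.51 and 1.96 FPKM in the controls and 3.05 and 4.36 FPKM in the knockdown (0.77 log2, limma adjusted p 0.0288; 0.131, 0.0847 and 0.0907 without control 1, control 2 or knockdown 2). LINC02454 was 2.30 and 2.40 FPKM against 5.74 and 3.73 FPKM (0.75 log2, limma adjusted p 0.0358; 0.147, 0.137 and 0.0549 without control 1, control 2 or knockdown 1). All 23890 bases of the LINC02454 locus are shared with AC025419.1, at 7.71 FPKM and also called higher (0.64 log2), so reads of those 2 may be mixed too. LINC00944 was 0.339 and 0.303 FPKM against 0.923 and 1.41 FPKM (0.70 log2, limma adjusted p 0.0265; 0.103, 0.112 and 0.0672 without control 1, control 2 or knockdown 2). LINC00944 also reached the limit through the knockdown mean alone, so its call supports no direction. In LINC00173, LINC02454 and LINC00944 the knockdown replicates were further from each other than the controls were. LINC02323 (0.64 log2), LINC01273 (0.54 log2) and LINC01186 (0.47 log2) were called at adjusted p values of 0.0209, 0.0245 and 0.0346. Without each library in turn their adjusted p was 0.0501 to 0.0883, 0.0602 to 0.107 and 0.0818 to 0.121.

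**Figure D4:**
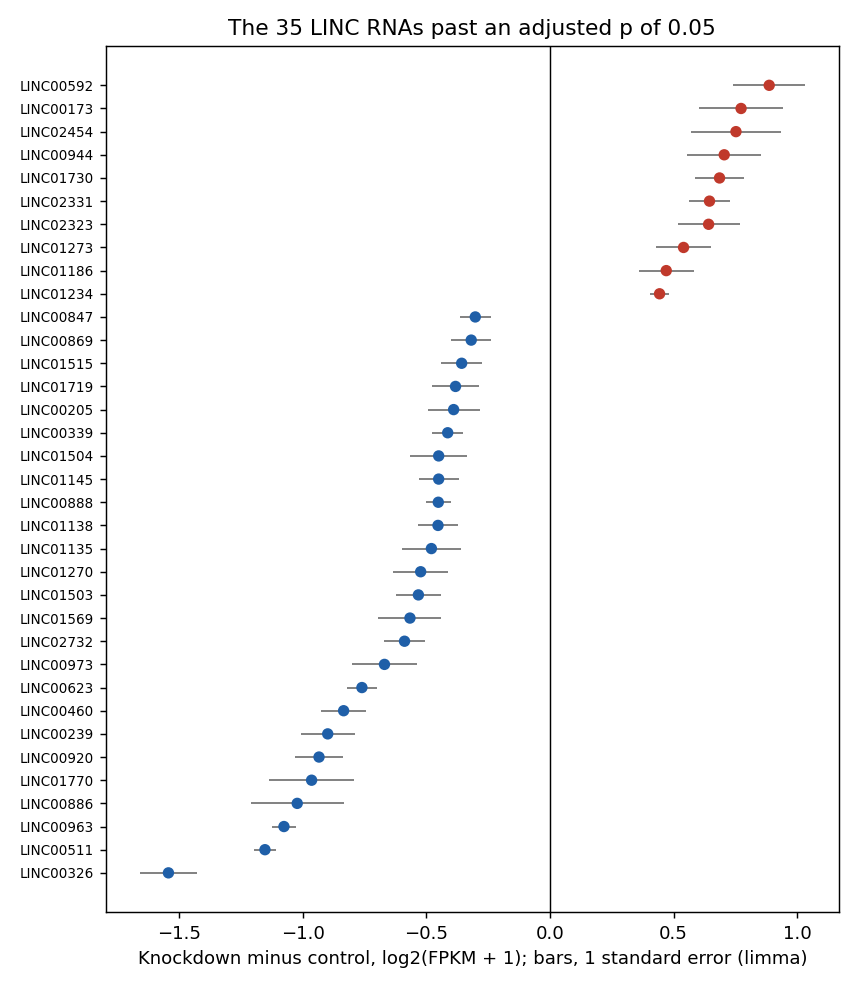
Difference between knockdown and control (x axis, log2(FPKM + 1), with 1 SE) for the 35 LINC RNAs called at an adjusted p of 0.05. The 25 falls reach -1.54 in LINC00326 and the 10 rises reach 0.89 in LINC00592.

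Of the 40 members called, 10 kept the call without each library in turn and under every alternative run. These were 8 lower (LINC00239, LINC00326, LINC00460, LINC00511, LINC00623, LINC00888, LINC00920 and LINC00963) and 2 higher (LINC01234 and LINC02331). With no filter on low values, 17 of the 40 stayed called and 23 did not. Of the RNAs described one by one above, NORAD, HOTAIR, LINC00173, LINC02454, LINC00944, LINC02323, LINC01273, LINC01186, LINC00886, LINC01770 and LINC00973 were among the 23 (adjusted p 0.0538 for NORAD to 0.135 for LINC02454).

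Among the 5 highest LINC members, 3 were not called. The highest was LINC02210, with 50.7 and 45.0 FPKM in the controls and 47.2 and 53.0 FPKM in the knockdown, so that the groups overlapped (0.06 log2, adjusted p 0.595). LINC01578 was 20.8 and 27.2 FPKM against 28.3 and 30.6 FPKM, apart but with uneven controls (0.30 log2, adjusted p 0.151). LINC01405 was 23.4 and 27.2 FPKM against 22.5 and 19.5 FPKM, apart but not called (-0.26 log2, adjusted p 0.122). Of the 115 LINC members without a call, 16 were at 5 FPKM or more, 58 had groups apart and 81 lay within 0.25 log2 of 0. They ranged from -0.75 log2 (LINC02356, adjusted p 0.146) to 0.97 log2 (LINC01399, adjusted p 0.117).

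By position, 8 of the 16 LINC members on chromosome 1 were called lower and 0 higher, where 17.9% of all 1539 tested features were lower and 16.6% higher. Of 13 on chromosome 12, 5 were called higher and 0 lower, where 19.1% of all 800 tested features were higher and 16.8% lower. The 5 include LINC00592 and LINC00944, which reached the limit through the knockdown mean alone. They also include LINC02454, whose whole locus overlaps AC025419.1, so this count supports no direction. The 2 chromosomes were singled out after their values were seen. A stretch of chromosome 1 from 120 to 150 Mb, singled out after its values were seen, held 5 members and each was called lower: LINC00623, LINC01145 (-0.45 log2), LINC01719 (-0.38), LINC01138 (-0.45) and LINC00869 (-0.32). Of the 69 features tested there, these 5 included, 15 were lower and 5 higher, with a median of -0.06 log2. Of the 5, LINC00623 alone kept its call without each library and with no filter on low values; the adjusted p of the other 4 reached 0.0836, 0.142, 0.0854 and 0.178, without knockdown 2 for LINC01145, control 1 for LINC01138 and control 2 for LINC01719 and LINC00869. These RNAs lie among copies of PPIAL4 and NBPF genes, near-identical families whose reads the counting may split, so their levels are uncertain.

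The nearest protein-coding gene within 100 kb was compared for each member. It was tested for 12 of the 27 members called lower (4 higher, 3 lower and 5 not called) and for 10 of the 13 called higher (4 higher, 1 lower and 5 not called). Of 80 such neighbours of members that were not called, 19 were higher and 14 lower. Of all 12573 protein-coding features tested, 2280 were higher and 2314 lower (36.5% called). Across the 102 pairs the 2 differences had a Pearson r of 0.218 and a Spearman rho of 0.235, as a description over pairs that share the 4 libraries and, where they overlap, reads.

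LINC02331 lies 98854 bp from BMP4, a signalling ligand of the TGF-beta family. BMP4 was 82.1 and 81.9 FPKM in the controls and 295 and 298 FPKM in the knockdown. Its groups were very far apart and its rise (1.84 log2, limma adjusted p 2.38e-04) was larger than that of LINC02331, whose reads may be mixed with those of AL365295.1. CDC25B, a phosphatase of the G2 to mitosis step 2236 bp from LINC01730, was 61.3 and 61.0 FPKM against 115 and 114 FPKM (0.89 log2, limma adjusted p 4.73e-04), so both were higher. RBM19, 43012 bp from LINC01234, was called higher as LINC01234 was, from 3.36 to 5.00 FPKM (0.46 log2, limma adjusted p 0.0104). LINC02454, with reads that may be mixed as given above, and MSRB3, a methionine sulfoxide reductase 97681 bp away, were also both higher. MSRB3 went from 5.08 to 10.5 FPKM (0.93 log2, limma adjusted p 0.0102), a call lost without knockdown 2.

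In other pairs the 2 were called opposite ways or the LINC RNA alone was called. CEBPB, a transcription factor gene 14154 bp from LINC01273, was 64.9 and 68.4 FPKM in the controls and 43.2 and 46.7 FPKM in the knockdown (-0.56 log2, limma adjusted p 0.00374) while LINC01273 was called higher. NTMT1, 95197 bp from LINC00963, was higher (48.7 to 64.3 FPKM, 0.39 log2, limma adjusted p 0.00602) beside the fall of LINC00963. SLC39A11, a zinc transporter gene 5477 bp from LINC00511, was 67.7 and 60.7 FPKM against 58.4 and 67.9 FPKM, with groups that overlapped (-0.03 log2, adjusted p 0.856). LINC01135 was called lower together with its neighbour. That neighbour, JUN, an AP-1 subunit gene singled out after its values were seen, lies 1081 bp away on the other strand. JUN was 21.4 and 20.9 FPKM in the controls and 8.99 and 9.41 FPKM in the knockdown (-1.12 log2, limma adjusted p 6.48e-04), and LINC01135 was 1.44 and 1.35 against 0.597 and 0.847 FPKM (-0.48 log2, limma adjusted p 0.0399; 0.0569 to 0.147 without each library, and not called with no filter on low values). LINC01504 and ZFAND5, which overlap over 5309 bases, and LINC00847 and ZFP62, 7869 bp apart, were the other pairs with both called lower. The calls of LINC01504 and LINC00847 were lost without each library in turn and with no filter on low values. LINC00847 also shares 1280 bases with HEIH, at 8.35 FPKM and called lower (-0.32 log2). At both loci reads may be mixed.

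**Figure D5:**
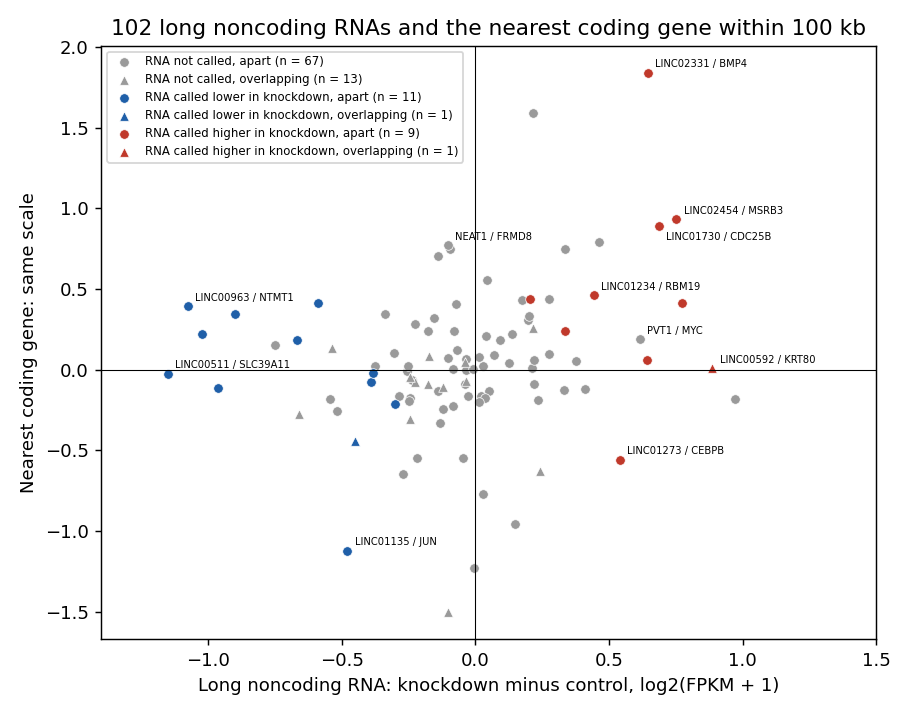
Difference of each long noncoding RNA (x axis) against that of its nearest protein-coding gene within 100 kb (y axis), both knockdown minus control in log2(FPKM + 1), for 102 pairs; circles are pairs apart and triangles pairs that overlap. The pairs spread over all 4 quadrants (Pearson r 0.218), with LINC02331 and BMP4 at the top and LINC01135 with JUN low on both axes.

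RefSeq promoters (GRCh38.p14, 250 bases before to 50 after the start, 300 in all) were matched by symbol for 99 of the members tested, 20 of them called lower and 10 higher. They are shown because they allow the letters of members that moved the same way to be compared. A search of both strands found the AP-1 motif TGANTCA in 6 of 20 promoters of members called lower, in 0 of 10 called higher, in 14 of all 99 (14.1%) and in 7.71% of all 35116 promoters. The E-box CACGTG was in 1 of 20 and 3 of 10 (7.26% of all promoters), CCAAT in 7 and 3 (34.6%) and the GC box GGGCGG in 10 and 5 (45.0%). The cAMP response element TGACGTCA was in 0 and 0 (1.85%), the interferon-stimulated response element in 1 and 0 (3.57%), the ETS motif CCGGAAGT in 1 and 1 (4.14%), TATAAA in 0 and 0 (11.5%) and the GRHL motif AACCGGTT in 0 and 0 (0.134%). Of the 6 promoters with AP-1 letters, those of LINC00460, LINC00963 and LINC00973 have RefSeq starts 2087, 11714 and 66492 bp from the 5′ end of the measured locus. For the others this distance was 69 to 646 bp. Median GC content was 62.0% for the lower, 60.2% for the higher and 58.7% for all promoters. A match is a run of letters and not a measured binding site. Among the 6 RNAs called lower with AP-1 letters, LINC00460 and LINC00963 kept their calls in every fit and the others did not. The call of LINC00339 (-0.41 log2, limma adjusted p 0.0113) was lost without each library in turn. The LINC00339 locus shares 5713 bases with CDC42, at 189 FPKM and called higher (0.24 log2). Reads of LINC00339 and CDC42 may be mixed, though they were called opposite ways. The stretches below hold AP-1 letters in promoters of RNAs called lower, with the motif in capitals, on the strand of the RNA; CYTOR holds the motif 2 times, 19 and 9 bases before the RefSeq start, LINC00339 holds the one shown 101 bases before it, while that of LINC00963 lies 20 bases after a RefSeq start 11714 bp from the 5′ end of its locus in the tables:
CYTOR: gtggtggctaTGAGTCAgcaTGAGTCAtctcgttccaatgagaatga
LINC00339: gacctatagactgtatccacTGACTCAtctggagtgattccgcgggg
LINC00963: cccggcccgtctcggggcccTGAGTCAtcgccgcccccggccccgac

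Whole promoters are shown for 3 RNAs that kept their calls in every fit and whose promoters differ in letters. The first holds 1 GC box (in capitals) and has a GC content of 78.0%; it belongs to LINC00511, on chr17:72640423-72640722, minus strand. LINC00460, on chr13:106376314-106376613, plus strand, holds 2 AP-1 motifs, 44 and 17 bases before the RefSeq start, and 1 CCAAT read from the other strand. That start lies 2087 bp from the 5′ end of the measured locus. LINC01234, on chr12:113773634-113773933, minus strand, holds CCAAT 3 times, 2 of them read from the other strand.
LINC00511: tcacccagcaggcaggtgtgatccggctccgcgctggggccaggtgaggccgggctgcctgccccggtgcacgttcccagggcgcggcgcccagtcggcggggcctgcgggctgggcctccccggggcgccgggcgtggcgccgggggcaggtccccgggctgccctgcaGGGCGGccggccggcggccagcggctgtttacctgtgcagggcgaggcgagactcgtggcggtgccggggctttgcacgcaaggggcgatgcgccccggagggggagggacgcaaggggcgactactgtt
LINC00460: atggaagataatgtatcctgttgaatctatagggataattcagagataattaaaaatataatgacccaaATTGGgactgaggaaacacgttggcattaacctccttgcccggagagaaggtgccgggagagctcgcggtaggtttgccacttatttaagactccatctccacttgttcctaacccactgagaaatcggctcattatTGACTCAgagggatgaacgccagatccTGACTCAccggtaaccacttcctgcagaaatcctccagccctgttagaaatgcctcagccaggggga
LINC01234: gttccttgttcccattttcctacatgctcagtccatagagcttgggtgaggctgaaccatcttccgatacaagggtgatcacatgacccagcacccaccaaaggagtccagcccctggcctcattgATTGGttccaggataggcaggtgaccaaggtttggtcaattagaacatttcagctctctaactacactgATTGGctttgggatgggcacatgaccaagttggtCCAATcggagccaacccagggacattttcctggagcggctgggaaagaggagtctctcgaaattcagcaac

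Among 22 genes of RNA decay and noncoding RNA processing, 4 were higher, 1 lower and 17 not called. That is 22.7% called, beside 33.3% of all features and 43.8% of those at 10 FPKM or more. Their median level was 33.4 FPKM and their median difference 0.03 log2. EXOSC8, a subunit of the RNA exosome ring, was 54.0 and 49.9 FPKM in the controls and 27.6 and 29.97 FPKM in the knockdown (-0.83 log2, limma adjusted p 0.00207). Its groups were far apart. The exosome nuclease DIS3 was higher (26.5 to 33.6 FPKM, limma adjusted p 0.00846; 0.0548 and 0.0660 without control 1 or 2), as was the exosome cap subunit EXOSC3 (42.3 to 50.7 FPKM, limma adjusted p 0.0123; 0.0812, 0.0631 and 0.0589 without control 1, control 2 or knockdown 2). Of 31 other well known long noncoding RNAs tested, 4 were higher, 12 lower and 15 not called (51.6% called, beside 33.3% of all features), with a median of -0.03 log2. PCAT1 and CASC19, also counted in the 8q24 list, are among the 12. Among the falls, named after their values were seen, CRNDE, an RNA known from colorectal neoplasia, went from 3.93 to 1.77 FPKM (-0.83 log2, limma adjusted p 0.00560), and the small nucleolar RNA host ZFAS1 from 289 to 198 FPKM (-0.54 log2, limma adjusted p 0.00361). H19, an imprinted RNA, was 0.569 and 0.811 FPKM in the controls and 31.4 and 31.0 FPKM in the knockdown (4.26 log2, limma adjusted p 2.39e-04). PURPL, a p53-regulated RNA, went from 0.796 to 2.54 FPKM (0.98 log2, limma adjusted p 0.00798; 0.0553 without control 2). TINCR, known from epidermal differentiation, went from 7.62 to 14.9 FPKM (0.90 log2, limma adjusted p 0.0141; 0.0639 and 0.0814 without knockdown 1 or 2).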

How the data were processed

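RNA of 4 HCT116 libraries was sequenced. The authors deposited 1 table of FPKM per library, per the file headers; they used STAR and Cufflinks on GRCh38 (hg38), per the submitters' processing notes. Their versions, the annotation, strand setting and filters were not given in sources used here. Of 60811 rows, 45 second copies of pseudoautosomal genes were dropped, and 2347 values below 1e-09 were set to 0. FPKM are not counts, so knockdown minus control was fitted on log2(FPKM + 1) with limma 3.58.1 in R 4.3.3 (lmFit, eBayes with a trend; 2 residual and 2.71 prior degrees of freedom) for 15061 features with a mean of at least 0.5 FPKM. That limit lets every LINC member enter. Calls were made below an adjusted p of 0.05 (Benjamini-Hochberg). The scale understates changes of low RNAs.

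Depth was estimated from genes with 1 transcript of at least 1500 bases, whose low values fall on whole fragments: 83.4% to 86.5% of values up to 8 fragments were whole within 0.1. Chi-square per degree of freedom was 3.84 between the controls and 3.35 between the knockdown libraries, so both pairs differed by more than sampling noise. Transcripts and types came from GENCODE 29; loci are those of the tables with 1 added to the start.

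Members and the 7 gene lists were chosen with earlier results of these data known. The RNAs named are the 10 of the rule, the 10 largest called rises and falls with groups apart, the 5 highest LINC members, 3 on each side of the limit, the nearest coding genes and up to 3 called genes per list; some genes that this takes are not reported here. Alternatives changed the pseudocount, filter, normalization, trend, replicate block or libraries. The fit was tested on simulated data.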

Additional observations from a re-analysis of the deposited data

How the results depend on the processing

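With no filter on low values, 1373 features were called higher and 1413 lower, in place of 2454 and 2558, and 6 members were higher and 11 lower, in place of 13 and 27. With 1 library fewer, 737 to 1433 features were higher and 771 to 1355 lower, and 3 to 7 members were higher and 10 to 13 lower; an arm with 1 library is assumed to vary like the other. ARID1A ranged from -0.78 to -0.60 log2 in those fits and missed the threshold without control 2 (-0.67 log2, adjusted p 0.0510). The other alternatives kept the counts within 1.5 times.

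A replicate block, which treats equal numbers as pairs, called 1894 features higher and 2017 lower, and 12 and 24 members, of which 11 and 23 were called without it. Deviations of same-numbered libraries had a correlation of -0.00777 over 15061 features. That showed no shared shift, but with 2 libraries a group it cannot exclude that libraries of equal number were handled together.

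With 1 library fewer, directions turned for MALAT1 (-0.33 to 0.17 log2; above 0 without control 1), LINC02210 (-0.020 to 0.15; below 0 without control 2 or knockdown 2) and LINC00652 (-0.0074 to 0.070; below 0 without control 1 or knockdown 1). They also turned for SLC39A11 (-0.13 to 0.082; above 0 without control 1 or knockdown 1), KRT80 (-0.018 to 0.038; below 0 without control 1), ANKRD9 (-0.015 to 0.13; below 0 without control 1 or knockdown 2) and SLC19A1 (-0.030 to 0.036; below 0 without control 2 or knockdown 2, and -0.0016 without mitochondrial genes). The cause was not tested. Below 1 FPKM replicates were further apart than at 5 FPKM or more, and 2 libraries a group limit what could be called there.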
